A study of Mus musculus with 2 samples.

Results

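Hmgcs1, Idi1, Fdps, Fdft1, Sqle, Lss, Cyp51 and Insig1 are 8 genes of cholesterol synthesis and its control, taken by name from the 20198 genes of a single-cell count table of mouse cornea. All 8 were found in the table, and their UMIs (unique molecular identifiers, 1 per captured transcript) were summed over the cells of each deposited cluster in each of 2 libraries. The UW library held dissociated cells from the corneas of 4 unwounded male mice, and the W library those of 4 male mice 24 h after the central corneal epithelium was scraped away while the stroma was left in place. The mice were 6 to 8 weeks old in both groups, their strain is not given in the sources used here, and the labels name no transgene in them. By the study's methods, wounding went with pentobarbital anaesthesia, procaine and fluorescein on the eye and an ofloxacin treatment of the wound, so that W may have differed from UW in these agents as well, and their part cannot be told apart from the wound's. The corneas of a group were pooled before sequencing, so that each condition was 1 library without a replicate.

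The 7 enzymes among these genes stand along the mevalonate pathway, which builds isoprenoids and then sterols from acetyl-CoA, and they are written here in pathway order. Their genes are classical targets of SREBP2, a transcription factor that is released from the endoplasmic reticulum when membrane sterol is low. Insig1 encodes a membrane protein that holds the SREBP2 escort protein SCAP in the endoplasmic reticulum when sterol is plentiful, and is itself an SREBP target, so that it acts as a feedback brake. None of the 8 encodes a receptor for lipoprotein uptake, so the values concern synthesis and its control.

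Levels were given as UMIs per 1000000 UMIs of the same cells (CPM), and each library's value carried an exact Poisson 95% interval. The ratio of W to UW was given on the log2 scale with an exact 95% interval conditional on both counts. These intervals cover counting error only, because UMIs of the same pool of mice say nothing about the spread between mice, and no difference between UW and W was tested. The study's methods name an assignment of the pooled cells to single mice, which was not used here. A ratio of at least 1.5 fold in either direction is called past 1.5 fold here as a measure of size, and the share of all genes with a mean of at least 10 CPM that lay past it in the same cells was used as the background.

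The members lie on 6 autosomes in GRCm38, by the GENCODE M21 annotation. Hmgcs1 (chr13:119690379-119708260) and Idi1 (chr13:8885501-8892451) share a chromosome, as do Cyp51 (chr5:4081145-4104746) and Insig1 (chr5:28071363-28078662). Fdps lies at chr3:89093588-89101959, Fdft1 at chr14:63145150-63179578, Sqle at chr15:59315077-59331192 and Lss at chr10:76531588-76557138. Fdps overlaps a second annotated coding gene, Gm43738, on the same strand over 7512 bases, and reads there cannot be assigned to one of them with certainty. Of the other 7, Insig1 and Sqle overlapped no other annotated gene, and the overlapping genes of the rest lay on the opposite strand.

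RefSeq promoter windows (GRCm38.p6, 250 bases before the annotated start) were held for 5 of the 8 members and not for Fdps, Fdft1 and Sqle. All counts of motifs were made over the whole windows. A sterol regulatory element of the form TCACNCCAC, searched on both strands, was in 1 of the 5 windows (Hmgcs1) and in 1.22% of 27025 genes with a window. The CCAAT box was in 5 of 5 and in 37.5% of all genes, the GC box GGGCGG in 5 of 5 and in 35.4%, and the E-box CACGTG in 1 of 5 (Insig1) and in 6.86%. The CCAAT matches of Idi1 and Cyp51 and the GC box of Idi1 lay after the earlier GENCODE start of these genes. The windows of Hmgcs1 (plus strand, chr13:119690101-119690350) and Insig1 (plus strand, chr5:28071162-28071362, ending before the earlier GENCODE start) are shown because Hmgcs1 was lowest in the cluster of UW in which Insig1 was highest. Idi1, Lss and Cyp51 were lowest in that cluster too, and their windows, which held no sterol element, are not shown. Capitals mark the sterol element, the CCAAT box (read as ATTGG on the printed strand) and the E-box.
Hmgcs1: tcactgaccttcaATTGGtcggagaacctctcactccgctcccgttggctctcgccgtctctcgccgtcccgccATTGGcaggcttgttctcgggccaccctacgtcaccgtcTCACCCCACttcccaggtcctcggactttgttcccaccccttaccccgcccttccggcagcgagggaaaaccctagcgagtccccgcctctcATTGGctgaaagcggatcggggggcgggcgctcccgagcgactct
Insig1: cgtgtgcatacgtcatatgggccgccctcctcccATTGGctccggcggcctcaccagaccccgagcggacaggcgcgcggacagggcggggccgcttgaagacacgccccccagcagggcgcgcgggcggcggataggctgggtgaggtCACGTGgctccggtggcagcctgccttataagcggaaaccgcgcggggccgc
The sterol element of Hmgcs1 began 137 bases before the start, and CCAAT boxes began 237, 176 and 45 bases before it. In Insig1 the CCAAT box began 167 bases and the E-box 52 bases before the GENCODE start. A match describes these letters and not a bound site.

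The tables held 16450 UW cells and 12417 W cells in 17 deposited clusters, with 367166822 and 289586482 UMIs and medians of 22014 and 20290 UMIs per cell. The 2 libraries had 52 barcodes in common, 5 of them in the same cluster, and without those cells the member ratios moved by at most 0.01 on the log2 scale. A ratio was computed in the 12 clusters with at least 50 cells in each library. Of these, 10 were counted as epithelium (13501 UW and 8507 W cells), among them clusters 8 and 11, which were led by cell cycle genes (Top2a and Ung) and scored above the average cluster for the corneal epithelial list. Cluster 0 was led by the stromal keratan sulfate core protein gene Kera, and cluster 10 by Penk and Myoc. By the marker lists, cluster 3 was basal-like, 1 and 4 suprabasal-like, 6 and 7 superficial-like, 5 conjunctival-like, 8 mitotic-like and 11 S phase-like, while 2 (led by Ly6g6c and Spink5) and 9 (led by Wfdc18 and Dlk2) were left unnamed. Cluster 7 scored below the average cluster for the general corneal epithelial list and rests on its superficial genes alone.

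In the unwounded cornea the enzymes were highest in clusters 2 and 4 and, apart from Fdps, lowest in the superficial-like cluster 7, which held 3.11 to 47.5 CPM of each. The counting interval of cluster 7 overlapped those of clusters 9 and 10 for Fdft1 and that of cluster 9 for Sqle. Hmgcs1, the synthase that makes HMG-CoA at the entry of the pathway, stood at 534 CPM in cluster 2 and 478 in cluster 4 against 30.9 in cluster 7, a span of 17.3 fold. Basal-like cluster 3, at 235 CPM, could not be ordered against mitotic-like cluster 8 at 225, since their counting intervals overlapped. Idi1, the isomerase of isopentenyl diphosphate, was led by cluster 4 at 325 CPM, with 311 in cluster 2 and 20.1 in cluster 7. Fdps, which joins isoprenes to farnesyl diphosphate, reached 573 CPM in cluster 2 and 529 in cluster 4 and was also high in the conjunctival-like cluster 5 at 356. Its lowest UW value was in cluster 10 at 41.3 CPM, but clusters 7, 9, 0 and 10 could not be ordered for Fdps, since their counting intervals overlapped.

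The enzymes after the branch to sterols took a like order. Fdft1, the squalene synthase, ranged from 168 CPM in cluster 2 to 15.9 in cluster 7, and Sqle, the squalene epoxidase and a rate-limiting step, from 405 to 23.1. Lss, which closes the ring to lanosterol, was the scarcest member, at 54.9 CPM in cluster 2 and 51.9 in cluster 4, which overlapped, and 3.11 in cluster 7. Cyp51, the lanosterol demethylase, ranged from 309 CPM in cluster 2 to 18.1 in cluster 7. Over the 7 enzymes the highest cluster exceeded the lowest by 10.5 to 17.6 fold in UW and by 5.08 to 10.7 fold in W. Of the 11 pairs of neighbours in a gene's order of clusters, 2 to 6 had overlapping counting intervals in each library.

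Insig1 had another order. It was highest in superficial-like clusters 7 (605 CPM in UW) and 6 (286 CPM), then in clusters 2 (160) and 4 (129), and lowest in cluster 9 at 27.2, a span of 22.3 fold. In the W library cluster 7 led again at 396 CPM and cluster 6 followed at 166, and the levels in these 2 clusters stood clear of every other cluster. Insig1 alone thus made up 79.2% of the UMIs of all 8 genes in cluster 7 of UW (exact binomial interval 78.7% to 79.7%) and 47.2% in W (46.2% to 48.2%), against 17.2% and 11.1% in cluster 6 and 3.96% to 18.1% in the remaining 10 clusters of both libraries.

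**Figure D1:**
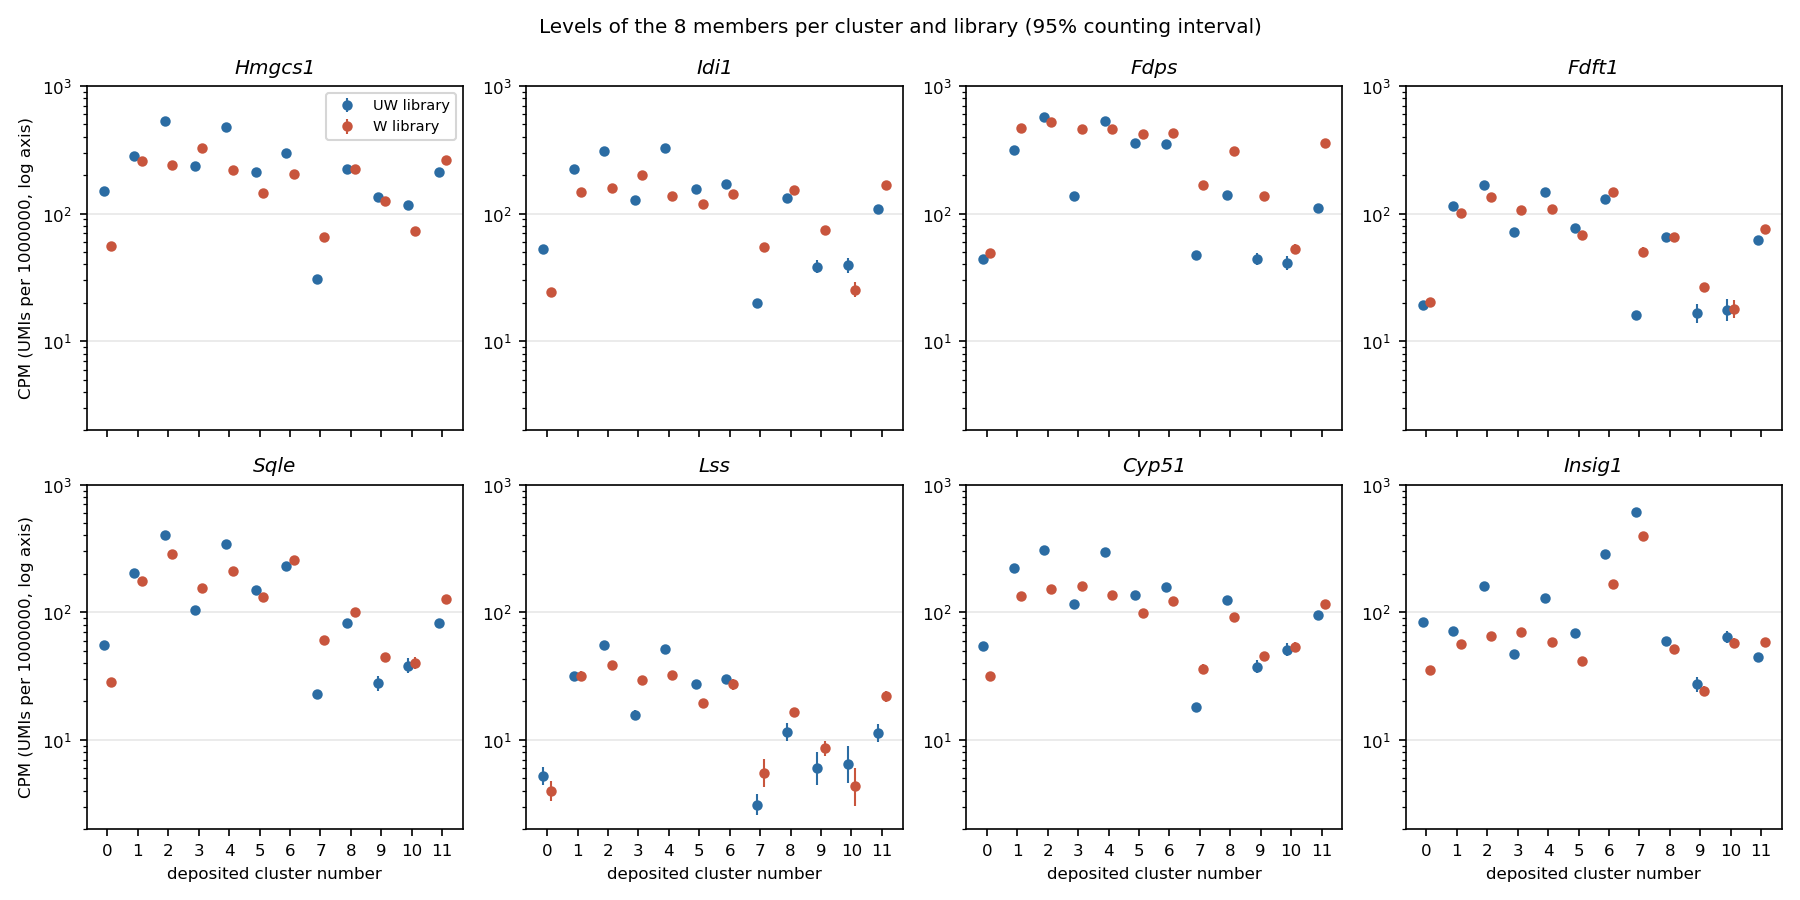
Level of each member in CPM (log axis) against the deposited cluster number, with UW in blue and W in red and bars for the 95% counting interval. The 7 enzymes peak in clusters 2 and 4 of UW, where W lies lower, and dip in cluster 7, where W lies higher, while Insig1 peaks in cluster 7 at 605 CPM in UW and 396 in W.

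**Figure D2:**
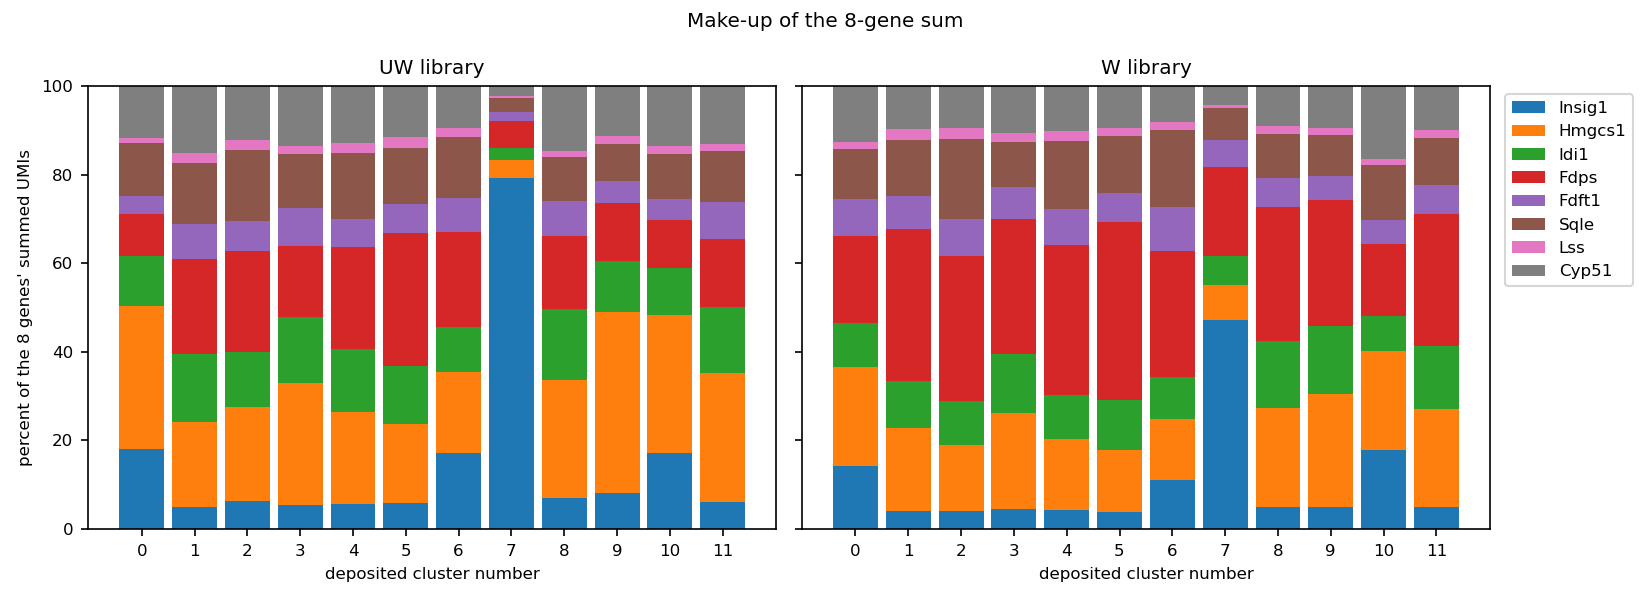
Percent of the 8 genes' summed UMIs given by each member (stacked bars adding to 100) per cluster, UW on the left and W on the right. The blue Insig1 segment fills 79.2% of cluster 7 in UW and 47.2% in W, and the red Fdps segment is larger in W in each of the 12 clusters.

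To ask what changed 24 h after wounding, the 10 epithelial clusters were first summed. Insig1 was lower in W, at 76.0 CPM against 176 in UW (log2 ratio -1.21, interval -1.24 to -1.19), and Cyp51 was lower at 108 against 187 CPM (-0.78, -0.80 to -0.76). The 5 other members that were lower stayed within 1.5 fold, from Hmgcs1 (310 CPM in UW and 208 in W, -0.57) to Fdft1 (106 and 83.9, -0.34), with Idi1 at -0.50, Sqle at -0.54 and Lss at -0.47. Fdps was the one member that was higher, at 371 CPM in W against 330 in UW (0.17, 0.15 to 0.18). The sum of the 8 genes went from 1551 to 1156 CPM (-0.42). Thus 0 of 8 members were past 1.5 fold higher, where 22.5% of 6951 genes were, and 2 of 8 lower, where 18.8% were. The scaling mattered for these counts: the median gene lay at 0.03 by CPM and at -0.19 after TMM scaling, which placed 6 of 8 members and 28.4% of all genes past 1.5 fold lower and 0 members and 15.6% of genes higher. Fdps changed sign under that scaling, from 0.17 to -0.05.

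The 2 libraries also differed in which epithelial cells they held. Clusters 2 and 4, where the enzymes were highest, gave 18.2% and 13% of the epithelial UMIs in UW but 9.58% and 9.48% in W, and cluster 7, where Insig1 was highest, 10.9% and 5%. Mitotic-like cluster 8 went the other way, from 3.84% to 20.4%. With the W levels weighted by the UW shares the 8-gene sum differed by -0.24 in place of -0.42, and with the W shares by -0.072, whereas the change of shares alone, at UW levels, gave -0.35. For Insig1 the observed -1.21 became -0.69 at UW shares and -0.58 at W shares. Hmgcs1, observed at -0.57, became -0.53 at UW shares and -0.35 at W shares, and Fdft1, observed at -0.34, became -0.054 and -0.011. Fdps was higher under both, by 0.34 and 0.53. The whole-epithelium values therefore mix levels within clusters with the make-up of the libraries, and the clusters are described one by one next.

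**Figure D3:**
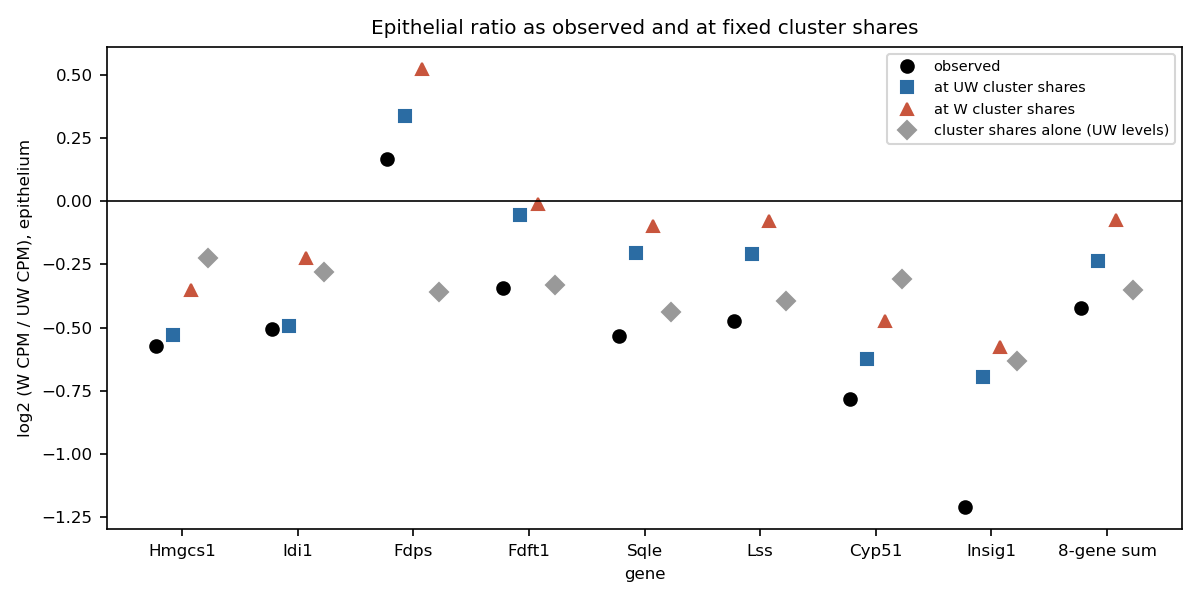
Log2 ratio of W to UW CPM in the epithelium for each member and for the 8-gene sum as observed (black), with cluster shares fixed at UW (blue) or at W (red), and for the change of shares alone (grey). The points of Insig1 move from -1.21 to -0.69 and -0.58, and those of Fdps lie above 0 except for the change of shares alone.

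In suprabasal-like cluster 4 and in cluster 2, where the enzymes had been highest, they were lower after wounding. In cluster 4 Hmgcs1 went from 478 CPM in UW to 219 in W (-1.13, interval -1.17 to -1.08). Idi1 went from 325 to 136 CPM (-1.25) and Cyp51 from 296 to 137 (-1.11). The brake moved with the enzymes here, since Insig1 went from 129 to 58.6 CPM (-1.14). Sqle (341 and 211 CPM, -0.69) and Lss (51.9 and 32.3, -0.68) were also past 1.5 fold. In all, 6 of 8 members were lower and 0 higher, against 30.5% and 12.6% of 6553 genes. Cluster 2 gave 4 of 8 lower and 0 higher, against 30.3% and 11.6% of 6201 genes. The largest difference was in Insig1, from 160 to 65.4 CPM (-1.29, -1.37 to -1.21). Hmgcs1 went from 534 to 239 CPM (-1.16), Cyp51 from 309 to 152 (-1.02) and Idi1 from 311 to 157 (-0.98). Fdps stood apart from the rest in both clusters, at 529 and 463 CPM in cluster 4 (-0.19) and 573 and 525 in cluster 2 (-0.13). The median over all genes was itself -0.24 in each of these clusters, against member medians of -0.90 in cluster 4 and -0.74 in cluster 2.

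Basal-like cluster 3 showed the opposite direction for every member. Fdps was 138 CPM in UW and 458 in W (1.73, interval 1.68 to 1.79). Lss was 15.7 and 29.3 CPM (0.90) and Idi1 127 and 202 (0.67). Thus 3 of 8 were past 1.5 fold higher and 0 lower, against 19.4% and 20.8% of 7224 genes, with the median of all genes at -0.02. The count was 2 with the mean over cells of each cell's CPM (18.7% of genes) and 5 (19.9%) without cells under 1000 genes or over 5% mitochondrial UMIs. The other members lay just inside the limit, from Cyp51 at 0.46 to Fdft1 at 0.58, with Hmgcs1 at 235 and 324 CPM (0.47).

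S phase-like cluster 11 also had every member higher in W. Fdps was 111 CPM in UW and 356 in W (1.68), and Lss 11.3 and 21.9 (0.95). Idi1 was 108 and 168 CPM (0.64) and Sqle 82.9 and 127 (0.61), so that 4 of 8 were past 1.5 fold higher and 0 lower, against 20.2% and 18.8% of 7331 genes. With the mean over cells of each cell's CPM, 2 members were higher in cluster 11 (19.6% of genes). Cluster 9, one of the clusters poorest in these transcripts, had 4 higher and 0 lower against 17.6% and 19% of 7546 genes. Fdps led there with 44.0 and 138 CPM (1.65), ahead of Idi1 with 38.3 and 74.9 (0.97), and Fdft1 and Sqle were at 0.69 each. Hmgcs1, at 136 and 125 CPM (-0.12), and Insig1, at 27.2 and 24.3 (-0.16, or -0.77 with cells thinned to 5000 UMIs), did not share this direction, and Lss was under 10 CPM on average.

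Superficial-like cluster 7, in which the enzymes had been scarcest, had the most members past 1.5 fold. All 7 enzymes were higher in W. Fdps went from 47.5 to 169 CPM (1.83, 1.74 to 1.92) and Fdft1 from 15.9 to 50.4 (1.66). Idi1 went from 20.1 to 54.6 CPM (1.44) and Sqle from 23.1 to 61.1 (1.41). Entry and late steps were both included, with Hmgcs1 from 30.9 to 66.0 CPM (1.09) and Cyp51 from 18.1 to 36.0 (0.99). Lss, under 10 CPM in both libraries, went from 3.11 to 5.52 (0.83, 0.37 to 1.28). Insig1 was the only member that was lower, at 605 CPM in UW and 396 in W (-0.61, -0.66 to -0.57). That made 7 of 8 higher and 1 lower, where 24.4% and 19.5% of 4375 genes were. Lss is counted among the 7, though the background held only genes with a mean of at least 10 CPM. TMM scaling shifted this cluster most, to 6 members and 13.7% of genes higher and 1 member and 38.0% lower, and Lss was the enzyme that no longer passed.

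In each of the other epithelial clusters 0 or 1 member was past 1.5 fold higher and 0 to 2 were lower. Superficial-like cluster 6 had 0 members higher and 1 lower, Insig1 (286 and 166 CPM, -0.78), against 17.2% and 22.8% of 5493 genes, and its enzymes lay between -0.56 (Hmgcs1) and 0.27 (Fdps). Conjunctival-like cluster 5 had 0 higher and 1 lower, again Insig1 (68.8 and 41.2 CPM, -0.74), against 13.8% and 19.6% of 6685 genes. Suprabasal-like cluster 1 had 1 higher and 2 lower, against 16.3% and 22.9% of 6760 genes, with Fdps at 312 and 472 CPM (0.59), Cyp51 at 221 and 134 (-0.72) and Idi1 at 222 and 147 (-0.59). In mitotic-like cluster 8 Fdps alone was past 1.5 fold, at 140 and 307 CPM (1.13), which made 1 higher and 0 lower against 15.6% and 20.2% of 7521 genes. TMM scaling brought the background in clusters 1 and 6 to 12.6% and 12.9% higher and 28.3% and 31.1% lower, and in clusters 8 and 9 to 19.8% and 22.8% higher and 16.1% and 13.6% lower. Members past it then numbered 0 higher in cluster 1, 2 lower in cluster 6, 2 higher in cluster 8 and 5 higher in cluster 9.

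The stromal cells of cluster 0 also had less of most members after wounding. Hmgcs1 was 150 CPM in UW and 55.6 in W (-1.43, -1.51 to -1.35), which was the lowest of the 96 ratios of 8 members in 12 clusters. Insig1 was 84.1 and 35.4 CPM (-1.25) and Idi1 52.5 and 24.4 (-1.10). Of the sterol-branch enzymes, Sqle was 55.3 and 28.2 CPM (-0.97) and Cyp51 54.4 and 31.5 (-0.79). Fdps (43.8 and 49.3 CPM, 0.17) and Fdft1 (19.1 and 20.3, 0.09) were not lower, and Lss was under 10 CPM. The count was 0 higher and 5 lower, against 9.06% and 15.3% of 8036 genes, or 13.7% and 9.71% after TMM scaling, which also gave 5. In cluster 10 the count was 0 higher and 2 lower, against 8.12% and 11% of 8226 genes. The lower members were Hmgcs1 at 117 and 72.6 CPM (-0.69) and Idi1 at 39.4 and 25.4 (-0.64), and neither passed after TMM scaling, when 11.4% of genes were higher and 7.65% lower. The members stood 1.87 to 10.7 fold above the level that free epithelial RNA, scaled by the corneal keratin Krt12, would give in clusters 0 and 10 of both libraries.

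**Figure D4:**
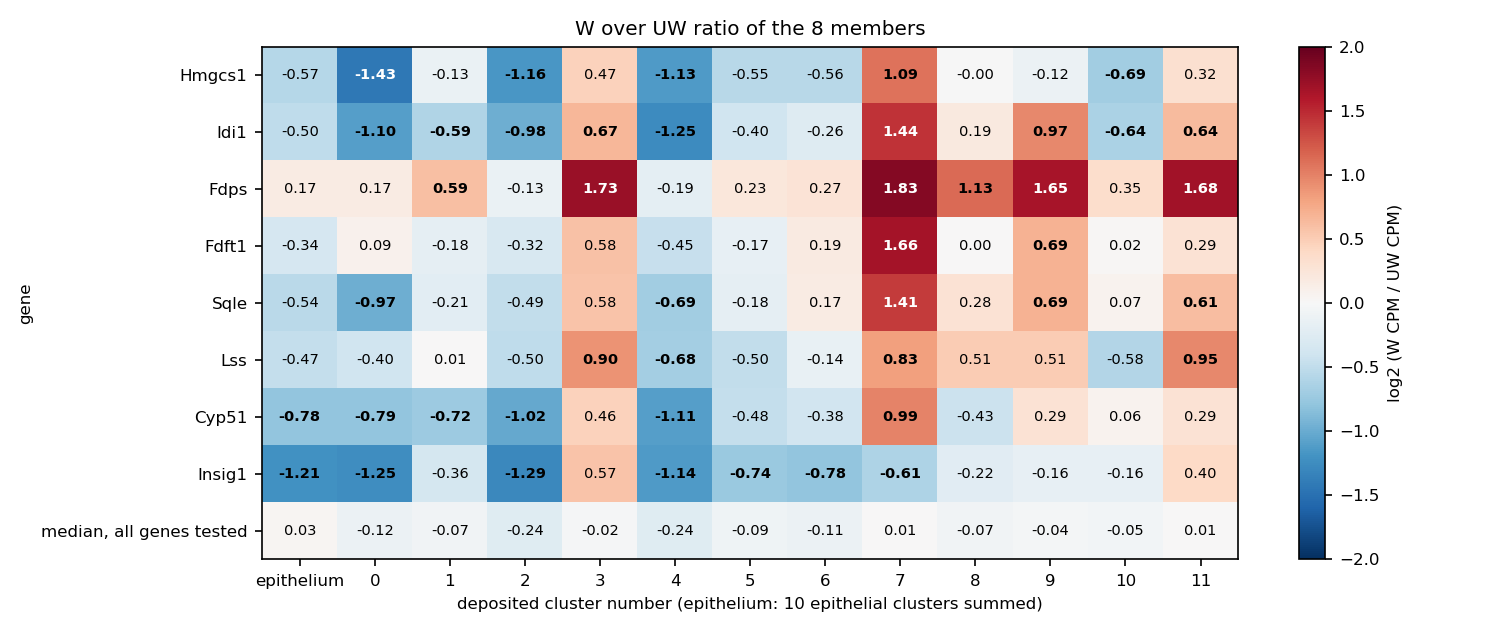
Log2 ratio of W to UW CPM for each member (rows) in the epithelium together and in 12 clusters (columns), with the median over all genes tested in the last row and bold type for members past 1.5 fold. The enzymes are all red in clusters 3, 7 and 11 and all blue in clusters 2 and 4, cluster 9 is red but for Hmgcs1 and Insig1, cluster 0 is blue but for Fdps and Fdft1, and Fdps has no bold blue cell while Insig1 has no bold red one.

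Over all 96 ratios, 20 were past 1.5 fold higher, 22 lower and 54 within, where 8.12% to 24.4% of all genes were higher and 11% to 30.5% lower by cluster. The 96 include Lss in clusters 0, 7, 9 and 10, where it was under 10 CPM on average and so outside the background. Of these it was past 1.5 fold in cluster 7 only. Fdps was past it upward in 6 of 12 clusters and downward in 0, and the share of the 8-gene sum that it took was larger in W in each cluster (21.4% and 34.3% in cluster 1, for example, and 16.1% and 30.4% in cluster 3). Insig1 was past it downward in 6 clusters and upward in 0. Fdft1 was higher in 2 clusters and lower in 0. The remaining members went both ways, with Idi1 higher in 4 and lower in 5, Hmgcs1 and Cyp51 higher in 1 and lower in 4 each, Sqle higher in 3 and lower in 2 and Lss higher in 3 and lower in 1.

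Depth and other cell types moved with some of these results. The median UMIs per cell were lower in W in clusters 2 (28377 and 22096) and 4 (26359 and 20585), where members were lower, and higher in clusters 3 (18682 and 23906), 9 (13944 and 24009) and 11 (21461 and 35514), where members were higher. In cluster 7 the median was 23636 in UW and 21233 in W, and in cluster 0 it was 11853 and 17588, so there depth and members went opposite ways. With every cell thinned to 5000 UMIs, 5 and 6 members were lower in clusters 2 and 4 (against 32.6% and 34.1% of all genes) and 0 higher. At that depth 6 members were higher in cluster 3 (19.4% of genes), 6 in cluster 7 (24.8%) and 3 in cluster 9 (18.1%), and 1 was lower in each of clusters 7 and 9 (19.7% and 19.3%). Counted per cell in place of per UMI, 8 members were higher in clusters 3, 9 and 11, as were 42.4%, 62.9% and 59.3% of all genes, and 7 lower in clusters 2 and 4, as were 47.4% and 40.2%. Cluster 0 then had 2 members higher and 2 lower, against 45.3% and 2.33% of genes. Cluster 8 had 6 higher and 0 lower, against 47.2% and 4.28%, and cluster 6 had 0 higher and 3 lower, against 9.89% and 40.1%. All 5 neutrophil markers had counts in the W epithelium, summing to 697 CPM (352 to 1050 by cluster), and 4 of 5, without Retnlg, in UW, summing to 23.0 CPM (2.03 to 155). S100a9 alone was 541 CPM of the sum in W and 22.1 in UW, and the other markers 157 and 0.946 CPM. The same list summed to 34341 CPM in the neutrophil-like cluster 13. The T cell list summed to 0.156 and 2.26 CPM, with Nkg7 at 0 in UW, and the monocyte list to 84.9 and 48.0 CPM with all 6 markers counted in both. Itgam alone was 83.1 and 28.6 CPM of that sum, and the other 5 monocyte markers were 1.83 CPM in UW and 19.4 in W. The stromal list, all 6 markers counted in both, summed to 5861 CPM in UW (1187 to 11156 by cluster) and 3496 in W (1081 to 5681), of which 5574 and 3168 CPM were Aldh3a1, a crystallin of corneal epithelium as well, and 286 and 329 CPM the other 5. The marker sums do not tell which cells made the transcripts, and the part of depth and of other cell types in the results was otherwise not tested.

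Within clusters, single cells spread around these means. At 5000 UMIs per cell, 11 to 12 UMIs of the 8 genes were the median in clusters 4 and 2 of UW, with 10th and 90th percentiles of 6 and 18 and of 7 and 19. In W the medians of clusters 4 and 2 were 6 and 7 UMIs. Cluster 3 had a median of 4 in UW and 6 in W, and cluster 7 one of 3 and 4. Between 6 and 92 cells a cluster and library were shallower than 5000 UMIs and were left out. The variance exceeded the mean in all 24 clusters and libraries, by 1.38 to 3.12 fold, so that cells of a cluster differed more than counting alone gives. Pairs of members were only weakly correlated across cells (median r 0.066 over 28 pairs and 24 clusters and libraries, at most 0.13 on average for Hmgcs1 with Sqle), which in counts this sparse is a description and not a finding.

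The other enzymes of the pathway were counted in the same clusters. This list and the next were drawn up with results of these data known. Of 13 further mevalonate and sterol enzymes, 9 of 12 tested were past 1.5 fold higher in cluster 3 (19.4% of all genes), 7 of 12 in cluster 11 (20.2%), 5 of 10 in cluster 9 (17.6%) and 5 of 9 in cluster 7 (24.4%), with 0 lower in each. In clusters 2 and 4, by contrast, 1 was higher and 7 lower of 13 in each, where 11.6% and 12.6% of genes were higher and 30.3% and 30.5% lower. Clusters 1 and 8 had 6 higher (16.3% and 15.6% of genes) and 1 lower each (22.9% and 20.2%), and clusters 0, 5, 6 and 10 had 1 to 3 higher (8.12% to 17.2%) and 1 to 4 lower (11% to 22.8%). Over the whole epithelium 2 were higher and 4 lower of 13 (median -0.28, against 0.03 for all genes), against 22.5% and 18.8%.

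The named enzymes did not share 1 direction. Mvd, the mevalonate diphosphate decarboxylase, was 19.4 CPM in UW and 39.6 in W (1.03). Mvd was past 1.5 fold higher in 11 of 12 clusters, where 8.12% to 24.4% of genes were by cluster, and reached 2.5 in cluster 3. Pmvk and Mvk, the kinases before it, were above 0 in all 12, with epithelial values of 0.43 and 0.38, though Pmvk was only 0.02 in cluster 10 and 0.08 in cluster 0. Acat2, at the start of the pathway, went both ways, from -0.34 in cluster 4 to 1.74 in cluster 3. Pmvk, Mvk and Acat2 were chosen after their values were seen. Ebp, a sterol isomerase that acts after Cyp51, was 53.1 and 88.1 CPM (0.73) and positive in all 12 as well. Sc5d (292 and 147 CPM, -0.99) and Tm7sf2 (20.3 and 11.6, -0.80), which desaturate or reduce late sterols, were lower over the epithelium. Sc5d was past 1.5 fold lower in 5 of 12 clusters, in which 19.6% to 30.5% of all genes were lower, and higher in 0. Tm7sf2 was higher in 3 clusters (15.6% to 20.2% of genes) and lower in 3 (22.8% to 30.5%).

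Of 8 tested SREBP regulators 1 was past 1.5 fold higher and 0 lower over the epithelium, against 22.5% and 18.8% of all genes. The higher gene was Scap, the sterol-sensing escort, at 8.60 and 18.9 CPM (1.14), which was past 1.5 fold higher in all 12 clusters, by 0.65 to 1.30, where 8.12% to 24.4% of genes were. TMM scaling, which shifted clusters 6 and 7 by -0.16 and -0.38, left Scap inside the limit in these clusters. Srebf2, which encodes SREBP2, was 122 and 92.5 CPM (-0.40), Srebf1 31.3 and 35.6 (0.18, less than the shift of -0.22 that TMM scaling gave the epithelium) and Insig2, the second Insig gene, 87.0 and 65.4 (-0.41).

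The LXR receptors answer to excess sterol. Of 4 tested genes of a list that held a receptor gene (Nr1h2) and targets of LXR, 0 were higher and 2 lower over the epithelium, against 22.5% and 18.8% of all genes. Abcg1, a sterol exporter, was 70.0 CPM in UW and 18.7 in W (-1.90). It was past 1.5 fold lower in 9 of 10 epithelial clusters and inside the limit in cluster 4 (-0.19). Mylip, the ubiquitin ligase that removes lipoprotein receptors, was 55.4 and 20.1 (-1.46) and past 1.5 fold lower in 10 of 10. In these 10 clusters 18.8% to 30.5% of all genes were lower. In stromal cluster 0, where 9.06% of genes were higher (13.7% after TMM scaling), Abcg1 was higher at 1.04, and Mylip lay inside 1.5 fold at 0.44.

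The neighbouring lists were counted against the same shares of 22.5% higher and 18.8% lower. Of 7 tested genes of sterol transport 0 were past 1.5 fold in either direction, and of 6 users of isoprenoids 1 was lower, the geranylgeranyl transferase subunit Pggt1b (13.1 and 7.66 CPM, -0.77). None of 4 oxysterol enzymes reached 10 CPM. In fatty acid synthesis 2 of 11 were higher and 1 lower: the desaturases Scd1 (12.6 and 27.8 CPM, 1.14) and Fads1 (10.9 and 20.7, 0.93) were higher and Scd2 (471 and 238, -0.99) lower. Over all lists 5 of 49 tested genes were higher and 8 lower, and TMM scaling gave 4 and 19, against 15.6% and 28.4% of all genes.

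**Figure D5:**
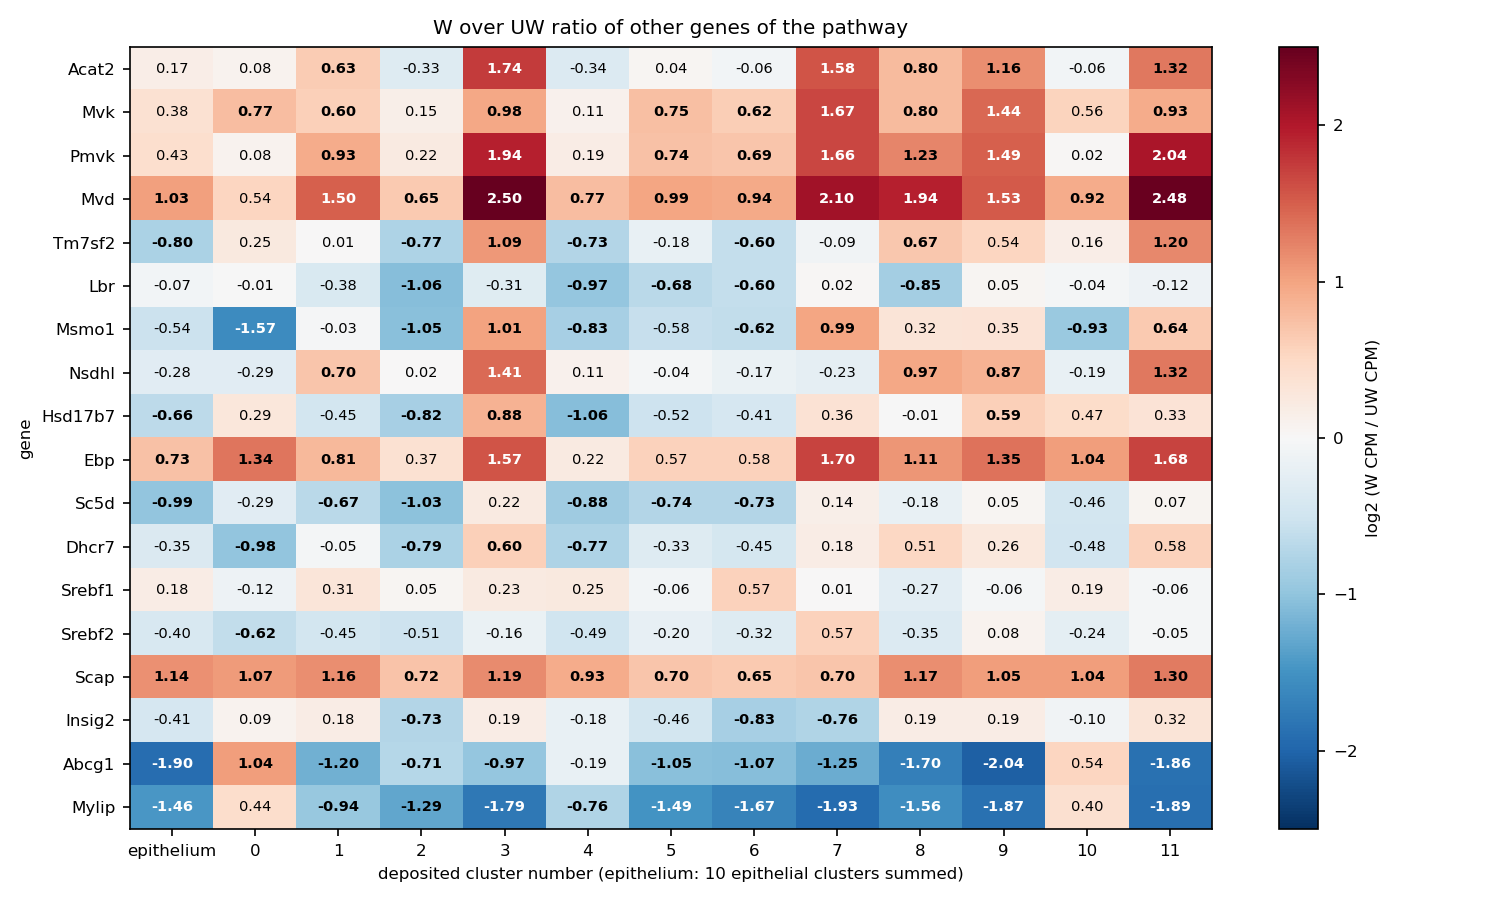
Log2 ratio of W to UW CPM for 12 other enzymes of the pathway, 4 regulators and 2 LXR target genes (rows) in the epithelium together and in 12 clusters (columns), bold past 1.5 fold. Mvd, Pmvk, Mvk, Ebp and Scap are above 0 in each column, and Abcg1 and Mylip are below 0 in the 10 epithelial clusters and above it in clusters 0 and 10.

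Genes whose level ran most like the summed level of the 8 were sought over 28 clusters and libraries, by Pearson's r of log2(CPM + 1). Among the most alike were Dusp22 and Msmo1 (0.94 each), Mpzl3, Nectin4 and Pak4 (0.93 each), and Adtrp, Tm7sf2 and Cldn7 (0.92 each). The median over 7868 genes was -0.20, and 6 of 51 tested list genes were among the 100 most alike. Each member was set against the sum of the other 7 in the same way. Fdft1 reached 0.93, Lss 0.91, Sqle 0.90, Idi1 0.88, Cyp51 0.81, Fdps 0.81 and Hmgcs1 0.71, whereas Insig1 reached 0.09. The points share 2 libraries and differ in depth and in cell type, so these values describe the order of the clusters and nothing else.

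Across the cells of single clusters genes among the most alike were Scd2 (mean r 0.22 over 20 epithelial clusters and libraries), Fgfbp1 (0.21), Msmo1 (0.19), Aqp5, Krt12 and Krt6a (0.19 each), Krt5 (0.16), Mal (0.15) and Gsta4 (0.14). The median gene had 0.0047, and 15 of 36 tested list genes were among the 100 highest of 4935. Correlations of this size in sparse counts give no relation for any 1 gene.

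Immune cells held few UMIs of the members in all, at 780, 2144, 706 and 513 in clusters 13, 14, 15 and 16 of W. As a level the 8-gene sum there was 425, 582, 261 and 494 CPM. It was 249 and 324 CPM in stromal clusters 0 and 10 of W and 1156 in the epithelium. In W, 8 of 8 members stood above the level that free epithelial RNA would give in clusters 15 (monocyte-like) and 16 (T-like), by 1.30 to 6.35 fold, 6 of 8 in neutrophil-like cluster 13 and 3 of 8 in monocyte-like cluster 14. The whole counting interval lay above that level for 6 members in each of clusters 15 and 16, for Hmgcs1, Fdps and Insig1 in cluster 13 and for Cyp51 and Insig1 in cluster 14. In the latter 2 clusters the members lay 0.334 to 2.25 and 0.839 to 1.71 fold around that level. The UW library held 1 cell of cluster 13, 7 of cluster 14 and 7 of cluster 16, so no ratio was formed.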

How the data were processed

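Per the labels and the study's methods, the authors loaded pooled corneal cells on the 10x Genomics platform (the labels name v3 chemistry, the methods V2), made UMI counts with Cell Ranger 3.1.0 (reference mm10 in the methods, mm9 in the submitters' processing notes), and clustered the cells in Seurat after integration of the libraries. Their filter left out cells under 500 or over 8000 genes or above 10% mitochondrial UMIs, and doublets. No cell here was a doublet in the final column of doublet calls, but 305 UW and 164 W cells were in another column, and these were kept. The deposited counts were raw and not normalized, and fewer cells were held here than the study states. The deposited table of cells gives library, cluster and doublet calls and no cell type names.

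Counts were summed per cluster and library in Python 3.11.15 (numpy 2.4.6, scipy 1.17.1, pandas 2.3.3) and divided by the total, with 367166822 UMIs in UW and 289586482 in W. Ratios and 95% counting intervals were computed without a test, as there was 1 library per condition. The computation was checked on simulated Poisson counts, the model that the intervals assume, so the check cannot speak for the spread between cells or mice. Scaling alternatives used edgeR 4.0.16 and DESeq2 1.42.0. The members, the 63 genes of the pathway lists and the limits were chosen with earlier results of these data known. Named beyond the members were the 12 tested list genes with the largest ratio, 4 regulators, and the 10 genes most like the 8-gene sum across clusters and across cells; some of these are not reported here. A 5000-UMI thinning removed depth differences between cells.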

Additional observations from a re-analysis of the deposited data

Results flagged for a closer look

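For 5 members the ratio of W to UW was past 1.5 fold upward in one cluster and downward in another, and the difference between the clusters is given here as a value that was not tested, since each condition was 1 library. Idi1 differed by 2.70 on the log2 scale between cluster 7 (1.44) and cluster 4 (-1.25). Hmgcs1 differed by 2.53 between cluster 7 (1.09) and stromal cluster 0 (-1.43), and Sqle by 2.38 between cluster 7 (1.41) and cluster 0 (-0.97). Cyp51 differed by 2.10 between cluster 7 (0.99) and cluster 4 (-1.11). Lss, the scarcest member, differed by 1.64 between cluster 11 (0.95) and cluster 4 (-0.68).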

How the results depend on the processing

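None of the 44 member ratios past 1.5 fold (2 in the epithelium together and 42 in single clusters) changed sign under the 8 other scalings and cell filters or without the barcodes found in both libraries, nor did the 7 of them that lie in clusters 0 and 10 after free epithelial RNA was subtracted there; both of the latter alternatives were chosen after seeing the data. Members past 1.5 fold lower in the epithelium together numbered 2 by CPM and 6 with TMM scaling, with DESeq2 size factors and with the 50 most abundant genes left out of the total, and list genes lower there numbered 8, 19 with TMM and 20 with DESeq2. UMIs per cell in place of CPM gave 41 of 96 cluster ratios higher in place of 20, while the share of all genes higher went from between 8.12% and 24.4% by cluster to between 6.52% and 62.9%. The percent of genes higher in the epithelium was 37.3 without the filter on low genes and 10.9 at 2 fold, and the percent lower at 2 fold 7.44. With W shares the 8-gene sum gave -0.072. At 2000 UMIs per cell the median pair correlation was 0.032 and the median variance over mean 1.35. No paired analysis was possible because each group had 1 library. Leaving out a replicate was likewise not possible. Between 37 and 44 of the 44 ratios were past 1.5 fold in each of these settings, fewest with UMIs per cell. Thinning to 5000 UMIs moved Lss in cluster 7 from 0.83 to 0.25 and Insig1 in cluster 9 from -0.16 to -0.77; the cause was not tested.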
